A study of Mus musculus with 9 samples.

Results

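Transcripts of 10 genes that make, salvage or spend NAD+ or act in axon survival were measured in lumbar (L3/L4) dorsal root ganglia (DRG) of adult mice 3 days after sciatic nerve transection, on 5 injured and 4 uninjured arrays. The genes were *Nmnat1*, *Nmnat2*, *Nmnat3*, *Sarm1*, *Nampt*, *Nadk*, *Naprt*, *Nmrk1*, *Sirt1* and *Parp1*. Earlier results of these data were known when the genes were chosen. Their probes were found by gene name, older name or RefSeq accession, with no use of the measured values. This gave 15 probes of the 41174 on the array. All 15 were among the 31186 probes that passed the filter on dim signals. Every array carried DRG RNA in Cy5 and a universal mouse reference RNA in Cy3, so each value below is log2 of the DRG signal over the reference signal. Both groups were labelled cre.neg and jun.wt, and the lesion was the one label that differed between them. The labels gave no strain, sex or animal number, and nothing stated whether uninjured ganglia came from mice with a nerve lesion elsewhere or how many animals an array represents. The p-values therefore measure the spread between these samples, which may be partly technical. DRG hold neurons, glia and other cells, and in such tissue fewer cells of a type and less RNA per cell cannot be told apart.

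NAD+ is made in mammalian cells from nicotinamide, nicotinic acid or nicotinamide riboside, and these routes meet at the NMNAT enzymes, which add the adenylyl group. NMNAT2 is the short-lived axonal form that neurons carry down the axon by transport, and its loss there lets the NADase SARM1 become active and destroy the axon. NMNAT1 is nuclear and NMNAT3 mitochondrial. A cut nerve separates the distal axon from this supply, which is why the cell body's transcripts for these proteins are of interest in injured DRG.

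Of the 15 probes, 5 passed the test of injured against uninjured arrays, with an adjusted p under 0.05 (limma, Benjamini-Hochberg over all 31186 probes). *Nadk* and *Naprt* rose, and *Nmrk1*, 1 probe of *Nmnat1* and 1 probe of *Nmnat2* fell. The other 10 probes, among them all probes of *Sarm1*, *Nmnat3*, *Nampt*, *Sirt1* and *Parp1*, did not pass. Over all probes tested, 7338 were called (23.5%), 3275 of them higher (10.5%) and 4063 lower (13.0%), and the members' count of 5 in 15 is to be read against that background. The median log2 fold change of the 15 probes was 0.0082, against -0.0045 over all probes. The lowest was -0.45 and the highest 0.63, so no member changed by as much as *Atf3* (5.14) or *Sprr1a* (4.99), which mark injured sensory neurons and were read as a check of the labels. *Gap43*, a growth cone gene read for the same purpose, rose by 0.62 (limma's adjusted p = 0.0467). Groups of arrays did not overlap for 4 of the 15 probes, against 7039 of 31186 (22.6%) over the array.

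**Figure D1:**
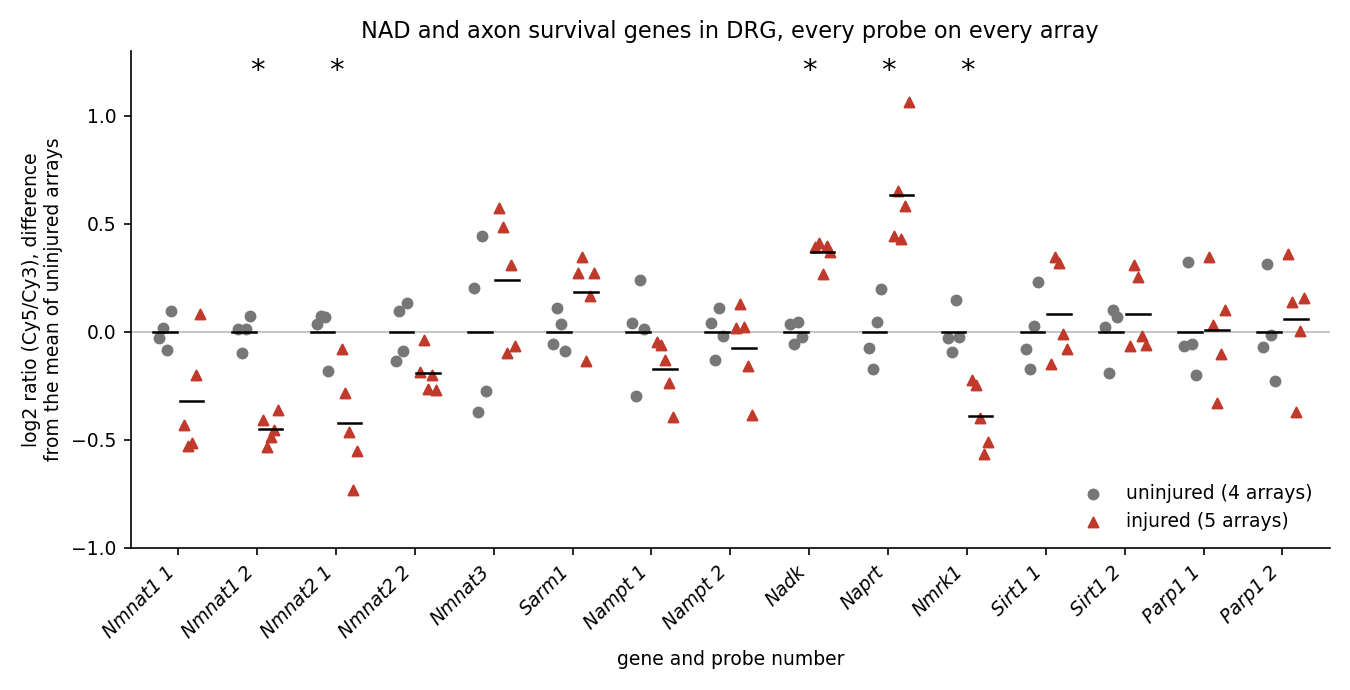
Each point is 1 array and gives the log2 ratio (Cy5/Cy3) of a probe minus the mean of the uninjured arrays (grey circles, 4 uninjured arrays; red triangles, 5 injured arrays; black lines, group means). Stars mark the 5 probes with an adjusted p under 0.05, and *Nadk*, *Naprt*, *Nmrk1* and probe 2 of *Nmnat1* are the 4 whose groups do not overlap.

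The arrays lay on 3 slides that were not balanced over the groups. One slide held uninjured arrays 2, 3 and 4, another held uninjured array 1 with injured arrays 1, 2 and 5, and the last held injured arrays 3 and 4. A fit with slide as a block therefore rests on the 1 uninjured and 3 injured arrays of the mixed slide. In that fit 0 of the 15 probes passed by limma's adjusted p, against 1508 of all probes (4.84%). An unadjusted limma p under 0.05 was found for 4 of the 15 (26.7%) and for 20% of all probes. The changes kept their direction, and values within the mixed slide are given beside each called gene below. Injured arrays 2 and 4 stood apart in skeletal muscle transcripts: the mean of *Acta1*, *Ckm*, *Myh4* and *Tnnc2* was 2.22 and 3.72 above the uninjured mean there, against -0.19 to 0.23 on the other injured arrays. Macrophage markers (6 genes, 2 called higher) ranged from -0.36 to 0.28 on uninjured and from 0.12 to 1.10 on injured arrays, highest on injured arrays 2 and 5. Sensory neuron markers, all 8 of them past the filter and 1 called lower, ranged from -0.096 to 0.11 on uninjured and from -0.28 to 0.085 on injured arrays. Red blood cell markers (2 of 3 genes past the filter) were at 1.31, 0.71 and 1.45 on injured arrays 2, 4 and 5, against -0.12 to 0.22 on uninjured arrays. Of satellite glia (4 genes) and endothelium (3 genes), 1 marker each was called higher. Fibroblast markers (3 genes, none called) ranged from -0.61 to 0.47 on uninjured and from -0.016 to 0.90 on injured arrays. Like the macrophage markers, those of red blood cells, satellite glia, endothelium and fibroblasts were highest on injured arrays 2 and 5. The part of these cell types in the results below was not tested. Without injured arrays 2 and 4, an alternative chosen after the data were seen, 4 of 15 probes were called and *Nmnat2* was not. Of all probes, 4040 (13%) were called there.

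Promoter windows from RefSeq (GRCm38.p6, 250 bases before to 50 bases after the start) were on hand for 9 of the 10 genes, in 11 windows, and not for *Naprt*. Those of the 3 genes that fell and of *Sarm1*, the counterpart of *Nmnat2*, are printed, the first 3 because they fell and the last because it is set against *Nmnat2* below. Capitals mark the CRE half-site TGACG on either strand, the core that CREB and ATF proteins bind. The *Nmnat2* window lies at chr1:152954851-152955150 (plus strand), that of *Nmnat1* at chr4:149485161-149485460 (minus strand), that of *Nmrk1* at chr19:18631766-18632065 (plus strand) and that of *Sarm1* at chr11:78497705-78498004 (minus strand).
Nmnat2: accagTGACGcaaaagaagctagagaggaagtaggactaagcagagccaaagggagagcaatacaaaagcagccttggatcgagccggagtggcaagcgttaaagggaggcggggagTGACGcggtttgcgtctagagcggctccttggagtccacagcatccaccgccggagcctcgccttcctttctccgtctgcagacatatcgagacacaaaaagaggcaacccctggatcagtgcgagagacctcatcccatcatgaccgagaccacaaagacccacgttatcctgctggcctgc
Nmnat1: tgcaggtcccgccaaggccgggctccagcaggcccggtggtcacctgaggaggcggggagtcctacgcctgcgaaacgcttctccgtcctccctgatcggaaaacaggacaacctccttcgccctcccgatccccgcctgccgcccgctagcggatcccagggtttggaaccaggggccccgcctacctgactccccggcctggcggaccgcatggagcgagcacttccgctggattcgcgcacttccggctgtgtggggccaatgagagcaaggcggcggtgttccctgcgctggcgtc
Nmrk1: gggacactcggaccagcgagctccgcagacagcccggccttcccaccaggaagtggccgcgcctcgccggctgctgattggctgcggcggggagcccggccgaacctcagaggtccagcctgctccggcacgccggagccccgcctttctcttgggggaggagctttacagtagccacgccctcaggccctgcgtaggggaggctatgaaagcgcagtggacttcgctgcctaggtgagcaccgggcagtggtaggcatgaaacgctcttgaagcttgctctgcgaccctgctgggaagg
Sarm1: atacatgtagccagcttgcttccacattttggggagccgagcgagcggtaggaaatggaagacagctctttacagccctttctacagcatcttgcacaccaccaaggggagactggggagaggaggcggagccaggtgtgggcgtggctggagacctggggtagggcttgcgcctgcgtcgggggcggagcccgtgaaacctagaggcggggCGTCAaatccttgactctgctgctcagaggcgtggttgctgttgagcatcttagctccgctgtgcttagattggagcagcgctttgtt
*Nmnat2* held the half-site at 245 and 133 bases before the start, and *Sarm1* held it once, 38 bases before the start. *Nmnat1* and *Nmrk1* held none. The half-site lay in 4 of the 11 member windows, the others being *Nampt* and *Sirt1*, and in 20.8% of all 32851 windows. The full CRE TGACGTCA, which contains the half-site, the AP-1 site TGACTCA and the ATF4-type element TGATGCAA, each searched on both strands, were in 0 of the 11 windows and in 1.79%, 5.2% and 0.895% of all windows. These matches describe the letters alone, since no binding was measured on these arrays.

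*Nmnat2* had 2 probes on mouse chromosome 1 (build mm7, plus strand), the brighter at chr1:153079443-153079502 and the other 1060 bases upstream at chr1:153078323-153078382. The exon or UTR they lie in was not determined, as no annotation of that build was used here. On the brighter probe, the log2 ratios of uninjured arrays 1 to 4 were 1.44, 1.48, 1.47 and 1.22, and those of injured arrays 1 to 5 were 1.33, 1.12, 0.94, 0.67 and 0.85. 4 of the 5 injured arrays lay below every uninjured array, while injured array 1 lay above uninjured array 4, so the groups overlapped. The probe fell by 0.42 on the log2 scale (SE 0.122, adjusted p = 0.0286 by limma, exact permutation p = 0.0317, two-sided), which is 1.34-fold lower. With each of the 9 arrays left out in turn the change ranged from -0.51 to -0.34 and limma's adjusted p from 0.00661 to 0.0778, and the call was lost without uninjured array 1, 2 or 3 and without injured array 3, 4 or 5. Within the mixed slide the difference was -0.34, with all 3 injured arrays below the uninjured one. The reference carried little *Nmnat2* signal, with corrected Cy3 intensities of 84.2 to 93.7 against Cy5 intensities of 198.1 to 450.9, both after an offset of 50 had been added. With no offset the change was -0.57 (limma's adjusted p = 0.0262). The call was lost with the authors' values (-0.40, limma's adjusted p = 0.0526), Cy5 alone (0.0543), Agilent's log ratios (0.0793) and median centring (0.0870), and 12 of 24 alternatives in all ended it.

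The second *Nmnat2* probe gave 1.38, 1.61, 1.42 and 1.65 on uninjured arrays and 1.33, 1.48, 1.25, 1.32 and 1.24 on injured arrays. Injured array 2 lay above uninjured arrays 1 and 3, and the other injured arrays lay below all uninjured ones. The difference was -0.19 (SE 0.0773, limma's adjusted p = 0.101), and within the mixed slide it was -0.030. The 2 probes thus pointed the same way, and the fall passed the threshold on 1 of them.

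*Nmnat1*, the nuclear enzyme, also had 2 probes, 21 bases apart on chromosome 4 (mm7, minus strand, chr4:148458249-148458308 and chr4:148458168-148458227). Probe 2, the dimmer of the pair, gave -0.36, -0.46, -0.35 and -0.29 on uninjured arrays and -0.77, -0.90, -0.85, -0.82 and -0.73 on injured arrays. Every injured array lay below every uninjured one, with SDs of 0.0718 (n = 4) and 0.0670 (n = 5). It fell by 0.45 on the log2 scale (SE 0.0606, adjusted p = 0.000423 by limma), or 1.36-fold lower, and the exact permutation p of 0.00794 is the smallest that 4 against 5 arrays can give. Within the mixed slide the difference was -0.45, as large as over all arrays.

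Probe 1 of *Nmnat1* gave 0.20, 0.24, 0.14 and 0.33 on uninjured arrays and -0.20, -0.30, -0.29, 0.026 and 0.31 on injured arrays. Injured arrays 1 to 4 lay below all uninjured arrays, and injured array 5 lay among the uninjured ones. The difference was -0.32 (SE 0.120, limma's adjusted p = 0.0801), and without injured array 5 it was -0.42 (limma's adjusted p = 0.00472). Injured array 5 was thus the 1 array on which the 2 neighbouring probes disagreed about lying below the uninjured range. It also had the lowest median Cy5 signal of the 9 (156.3, against 194.4 to 237.8 on the others). With median centring in place of loess, the difference of probe 1 was -0.43 (limma's adjusted p = 0.00917).

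*Nmnat3*, which encodes the mitochondrial enzyme, had 1 probe (mm7, chr9:98052872-98052931). Its log2 ratios were -2.18, -2.76, -1.95 and -2.66 on uninjured arrays and -1.81, -1.90, -2.48, -2.08 and -2.46 on injured arrays. The groups overlapped over most of their range, and the uninjured SD of 0.386 was the widest of the 15 probes. The difference was 0.24 with a 95% interval from -0.22 to 0.70 (limma's adjusted p = 0.417), and it ran from 0.12 without uninjured array 2 to 0.39 without uninjured array 3. The interval held both no change and a rise of the size of *Naprt* (0.63), so neither was excluded. Its lower end lay near the fall of *Nmnat2*'s second probe (-0.19).

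*Sarm1*, the axonal NADase, was listed on the array under an older name (A830091I15Rik) and had 1 probe on chromosome 11 (mm7, chr11:78555804-78555863, minus strand). Uninjured arrays gave 1.53, 1.70, 1.62 and 1.50, and injured arrays gave 1.86, 1.93, 1.45, 1.75 and 1.86. The injured arrays other than array 3 lay above all uninjured arrays, and injured array 3 lay below all of them. The difference of 0.18 did not pass (SE 0.0972, 95% interval -0.046 to 0.41, limma's adjusted p = 0.208). Without injured array 3 the value was 0.26 (limma's adjusted p = 0.0239), and with Cy5 read alone it was 0.29 (limma's adjusted p = 0.0471). *Sarm1* passed in these 2 of 24 alternatives only, and its direction did not turn in any. The value was 0.054 with all spots kept (limma's adjusted p = 0.806), 0.080 with Agilent's log ratios (0.650) and 0.11 with no offset (0.543). The reference carried little *Sarm1* signal, with corrected Cy3 intensities of 82.5 to 98.7, offset included. All 3 injured arrays of the mixed slide were above its uninjured array, by 0.36 on average.

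*Nmnat2* and *Sarm1* act in opposition in the axon, so their log2 ratios were also subtracted on each array. This was 1 of 5 pairs compared, with exact permutation p-values adjusted over the 5. The members in these pairs were chosen with earlier results of these data known, and pairs of other genes on the array were not compared. *Nmnat2* minus *Sarm1* was -0.089, -0.22, -0.15 and -0.28 on uninjured arrays and -0.54, -0.82, -0.51, -1.08 and -1.01 on injured arrays. No injured array reached the uninjured range. The log2 change of *Nmnat2* minus that of *Sarm1* was -0.61 (SE 0.125, exact permutation p = 0.0159, adjusted p = 0.0198 over the 5 pairs), and the value within the mixed slide was -0.70. The adjusted exact p rose to 0.0670 without uninjured array 2 and to 0.0926 with Agilent's own log ratios. With the second *Nmnat2* probe in place of the brighter one the value was -0.38 (adjusted exact p = 0.0265).

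*Nmnat2* against *Nmnat3* gave -0.66 (exact permutation p = 0.0159, adjusted p = 0.0198), with overlapping groups: injured array 3 (3.422) lay level with uninjured array 3 (3.42). The adjusted exact p was 0.0670 without uninjured array 2 and 0.0714 without injured array 1, 2, 4 or 5, so single arrays ended this call. *Nmnat2* against *Nmnat1* gave -0.10 (SE 0.223, exact permutation p = 0.683), and the sign of this value turned when injured array 4 or 5 was left out. With the dimmer probe of each gene, a choice made after the data were seen, the value was 0.26 (adjusted exact p = 0.0496), so its direction depends on which probes are read.

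**Figure D2:**
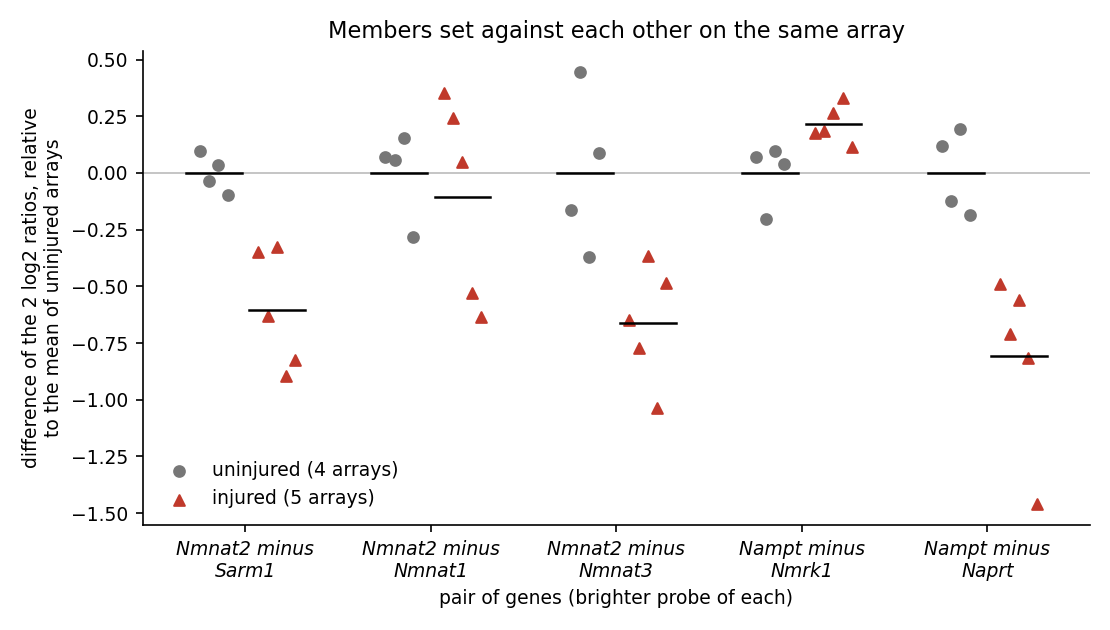
Each point is 1 array and gives the difference of 2 genes' log2 ratios (brighter probe of each), set to 0 at the mean of the uninjured arrays (grey circles, uninjured; red triangles, injured; black lines, group means). Injured arrays lie apart from all uninjured arrays for *Nmnat2* minus *Sarm1* and *Nampt* minus *Naprt*, and only narrowly for *Nampt* minus *Nmrk1*. They spread to both sides for *Nmnat2* minus *Nmnat1*. Groups did not overlap for 22.6% of all single probes, and the share for pairs of other genes was not computed.

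The genes that feed the NMNAT step moved in different directions. *Naprt*, the first enzyme of the route from nicotinic acid, was listed as Naprt1 and had 1 probe (mm7, chr15:75973518-75973577, minus strand). Uninjured arrays gave 0.93, 0.84, 1.06 and 1.21, and injured arrays gave 1.45, 1.66, 1.44, 1.59 and 2.07. All injured arrays lay above all uninjured arrays, and injured array 5 was the highest. *Naprt* rose by 0.63 (SE 0.129, adjusted p = 0.00518 by limma, exact permutation p = 0.00794), or 1.55-fold, the largest change among the 15 probes. Within the mixed slide the difference was 0.79. Injured arrays 2 and 5 held the 2 highest *Naprt* values. The markers of macrophages, red blood cells, satellite glia, endothelium and fibroblasts were also highest on these 2 arrays. The part of any of these cell types in the rise was not tested.

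*Nmrk1*, the kinase that turns nicotinamide riboside into the NMNAT substrate, was listed as BC016495 (mm7, chr19:18352209-18352268). Its log2 ratios were -0.015, -0.082, 0.16 and -0.015 on uninjured arrays and -0.21, -0.24, -0.39, -0.55 and -0.50 on injured arrays. All 5 injured arrays lay below the uninjured range, and the 2 arrays of the all-injured slide and injured array 5 lay lowest. *Nmrk1* fell by 0.39 on the log2 scale (SE 0.0867, adjusted p = 0.00846 by limma, exact permutation p = 0.00794), or 1.31-fold lower. Within the mixed slide the difference was -0.30, with 3 of 3 injured arrays below the uninjured one.

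*Nampt*, the rate-limiting enzyme of the nicotinamide salvage route, was listed as Pbef1 with 2 probes on chromosome 12 (mm7, chr12:30690185-30690244 and chr12:30678775-30678834). The brighter gave -1.91, -2.25, -1.71 and -1.94 on uninjured arrays and -1.99, -2.01, -2.08, -2.19 and -2.34 on injured arrays. Uninjured array 2 lay inside the injured range. The difference was -0.17 (95% interval -0.43 to 0.086, limma's adjusted p = 0.295). The second probe ranged from -1.99 to -1.75 on uninjured and from -2.25 to -1.74 on injured arrays, with a difference of -0.074 (limma's adjusted p = 0.657) that was 0.0032 without injured array 5. Neither probe passed the threshold.

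Set against *Nampt* on the same array, both other entry enzymes differed. *Nampt* minus *Naprt* was -0.81 (SE 0.196, exact permutation p = 0.00794, adjusted p = 0.0198 over the 5 pairs) and -1.003 within the mixed slide. *Nampt* minus *Nmrk1* was 0.21 (SE 0.0786, exact permutation p = 0.0159, adjusted p = 0.0198), and 0.090 within the mixed slide. Its groups did not overlap, though uninjured array 3 (-1.865) and injured array 5 (-1.847) nearly met. For both pairs the adjusted exact p was 0.0670 without uninjured array 2.

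*Nadk*, the cytosolic kinase that converts NAD+ to NADP+, had 1 probe (mm7, chr4:154580329-154580388, plus strand). Uninjured arrays gave -0.50, -0.59, -0.49 and -0.56, and injured arrays gave -0.14, -0.12, -0.27, -0.14 and -0.16. The groups were tight and apart, with SDs of 0.0476 (n = 4) and 0.0586 (n = 5), and injured array 3 lay lowest of the injured arrays. *Nadk* rose by 0.37 (SE 0.0560, adjusted p = 0.000934 by limma, exact permutation p = 0.00794), or 1.29-fold, and by 0.36 on average over the 3 injured arrays of the mixed slide. The standard error was the smallest of the 15 probes. With median centring in place of loess the change was 0.27 (SE 0.127) and did not pass (limma's adjusted p = 0.210).

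The 2 NAD+-consuming nuclear enzymes did not pass on any probe. *Sirt1*, a protein deacetylase, had probes 17446 bases apart on chromosome 10 (mm7, chr10:62855795-62855854 and chr10:62838289-62838348). The first ranged from -0.11 to 0.30 on uninjured arrays and from -0.085 to 0.41 on injured arrays, and the second from -0.73 to -0.44 and from -0.61 to -0.23. Their differences were 0.084 (95% interval -0.21 to 0.37, limma's adjusted p = 0.679) and 0.083 (95% interval -0.16 to 0.32, limma's adjusted p = 0.608). On both probes injured arrays 2 and 3 were the highest of all 9 arrays.

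*Parp1*, which builds poly(ADP-ribose) at DNA breaks, had 2 probes at overlapping positions on chromosome 1 (mm7, chr1:180580285-180580583 and chr1:180580265-180580563), so they are not separate readings of the gene. They ranged from -1.23 to -0.71 and from -1.20 to -0.66 on uninjured arrays, and from -1.36 to -0.69 and from -1.35 to -0.61 on injured arrays. Their differences were 0.0082 (95% interval -0.32 to 0.34, limma's adjusted p = 0.977) and 0.057 (95% interval -0.29 to 0.40, limma's adjusted p = 0.824). Uninjured array 2 and injured array 1 were high and injured array 3 was low on both. The sign of the first probe turned in 7 alternatives, so no direction is given for *Parp1*.

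**Figure D3:**
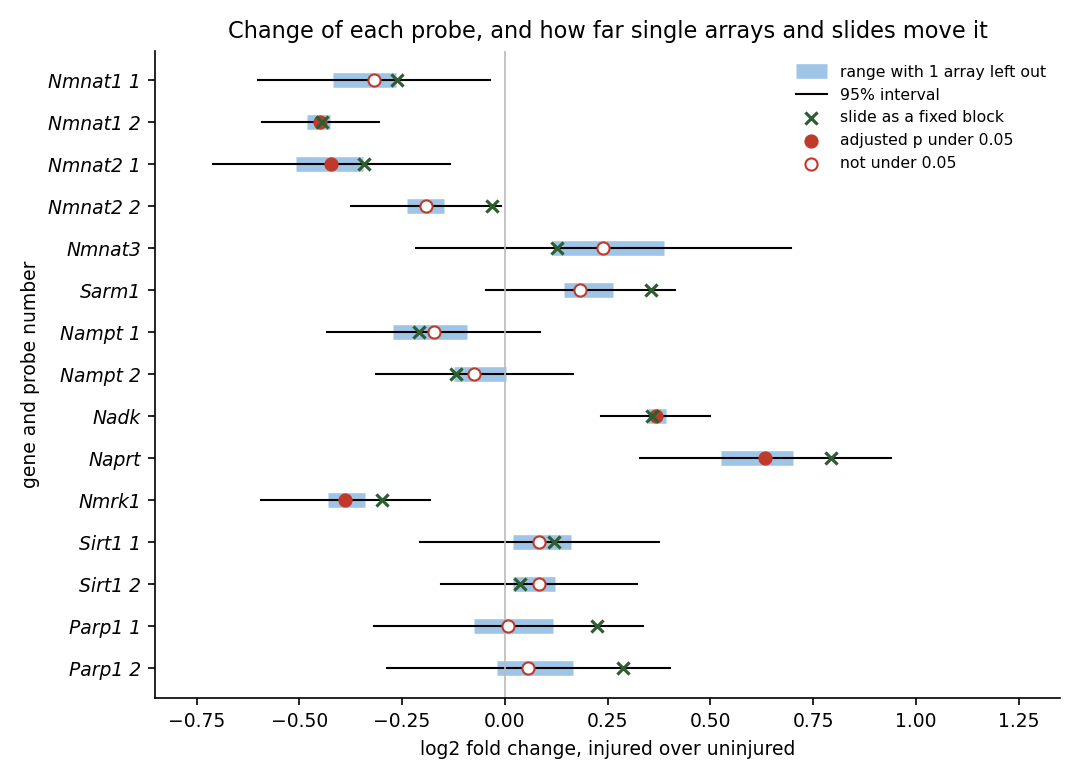
The x axis gives the log2 fold change of injured over uninjured arrays for each probe (circles, filled where limma's adjusted p is under 0.05; lines, 95% intervals; blue bars, the range with each array left out in turn; green crosses, the value with slide as a fixed block). Every cross lies on the same side of 0 as its circle, and the blue bars of *Nadk* and probe 2 of *Nmnat1* are the narrowest.

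Other genes of the pathways were read through the brightest probe of each, where 5202 of 20945 genes on the array (24.8%) were called. Of 22 other NAD+ synthesis and breakdown enzymes, 18 passed the filter, 5 rose, 1 fell and 12 did not pass the test, with a median log2 fold change of 0.014. *Pnp*, a purine nucleoside phosphorylase that also splits nicotinamide riboside, rose by 1.15 (SE 0.105, limma's adjusted p = 3.24e-05), from -1.14 to -0.65 on uninjured arrays to 0.063 to 0.43 on injured arrays. Its second probe rose by 1.13, and the brighter one also passed with slide as a block (1.27, limma's adjusted p = 0.0073). *Nnmt*, which methylates nicotinamide and so removes it from salvage, rose by 0.73 (limma's adjusted p = 0.0426), with the highest value on injured array 5. Its groups did not overlap, though the highest uninjured value (-2.69) and the lowest injured value (-2.682) nearly met. *Nmrk2*, the muscle-enriched relative of *Nmrk1*, rose by 0.26 (limma's adjusted p = 0.0360). Its values on injured arrays 1 to 5 were 0.18, 0.12, 0.13, 0.099 and -0.18, with muscle transcripts high on arrays 2 and 4. Without those 2 arrays the change was 0.23 (limma's adjusted p = 0.169), and the part of muscle was not tested. *Aox1*, an oxidase that breaks down nicotinamide derivatives, fell by 0.53 on the log2 scale (SE 0.0622, limma's adjusted p = 0.000179), from 2.95 to 3.09 on uninjured arrays to 2.39 to 2.59 on injured arrays, and also passed with slide as a block (-0.57, limma's adjusted p = 0.0341).

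Of 26 other NAD+-using enzymes, 25 passed the filter, 4 rose, 3 fell and 18 did not pass the test, with a median of 0.090. *Cd38*, a glycohydrolase of immune and other cells, rose by 0.70 on its brighter probe (limma's adjusted p = 0.0125) and had 0.11 on the other (limma's adjusted p = 0.475). Its highest values, 1.87 and 1.76, were on injured arrays 2 and 5. The markers of macrophages and of several other cell types were highest there too, and no link to any of them was tested. *Parp16*, an ADP-ribosyltransferase of the endoplasmic reticulum, rose by 0.56 (limma's adjusted p = 0.000399) with every injured array above every uninjured one. *Parp14* rose by 0.49 on the brightest of its 3 probes, and the other 2 probes, at 0.084 and 0.20, did not pass. The mitochondrial sirtuins *Sirt5* (-0.58, limma's adjusted p = 0.00128) and *Sirt4* (-0.27, limma's adjusted p = 0.00907) and the ADP-ribosyltransferase *Parp11* (-0.34, limma's adjusted p = 0.00682) fell, while *Sirt3*, the third mitochondrial sirtuin, was at -0.24 and did not pass. With slide as a block 0 of the 25 passed by limma's adjusted p, against 4.84% of all probes. An unadjusted limma p under 0.05 was found for 10 of the 25 (40%) and for 20% of all probes. It was found for 4 of the 18 synthesis and breakdown enzymes (22.2%) and for 5 of the 20 axon degeneration regulators below (25%). The lists hold the brightest probe of each gene, whereas the 20% covers every probe tested.

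Of 20 other regulators of axon degeneration, all 20 passed the filter, 3 rose, 5 fell and 12 did not pass the test, with a median of 0.0023. *Casp6*, a protease of axon dismantling, rose by 1.33 (SE 0.124, limma's adjusted p = 3.74e-05). It ranged from -2.35 to -2.19 on uninjured arrays and from -1.29 to -0.53 on injured arrays. *Zdhhc17*, a palmitoyltransferase, fell by 0.41 on the log2 scale (limma's adjusted p = 0.0113), and 2 of its 3 probes passed. Of the JNK cascade, *Mapk8* (JNK1) rose by 0.26 on 1 of 4 probes, *Mapk9* (JNK2) fell by 0.34 on 1 of 3 probes, and *Map2k4*, the kinase above both, fell by 0.31 on its only probe (limma's adjusted p = 0.00620). The cascade's other genes, looked at after their values were seen, fell on 2 of 3 probes for *Map3k12* (-0.31 and -0.21), 2 of 3 for *Mapk10* (-0.42 and -0.24, not on the brightest, at 0.022) and 1 of 3 for *Map3k13* (-0.41). The 3 probes of *Map2k7* had limma adjusted p-values of 0.776 to 0.910. With slide as a block, *Casp6* alone of this list passed (1.28, limma's adjusted p = 0.0209). Without injured arrays 2 and 4, the counts of the 3 lists were 1 higher and 1 lower of 18, 2 higher and 2 lower of 25, and 2 higher and 2 lower of 20. These are shares of 11.1%, 16% and 20%, against 13% of all probes tested.

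**Figure D4:**
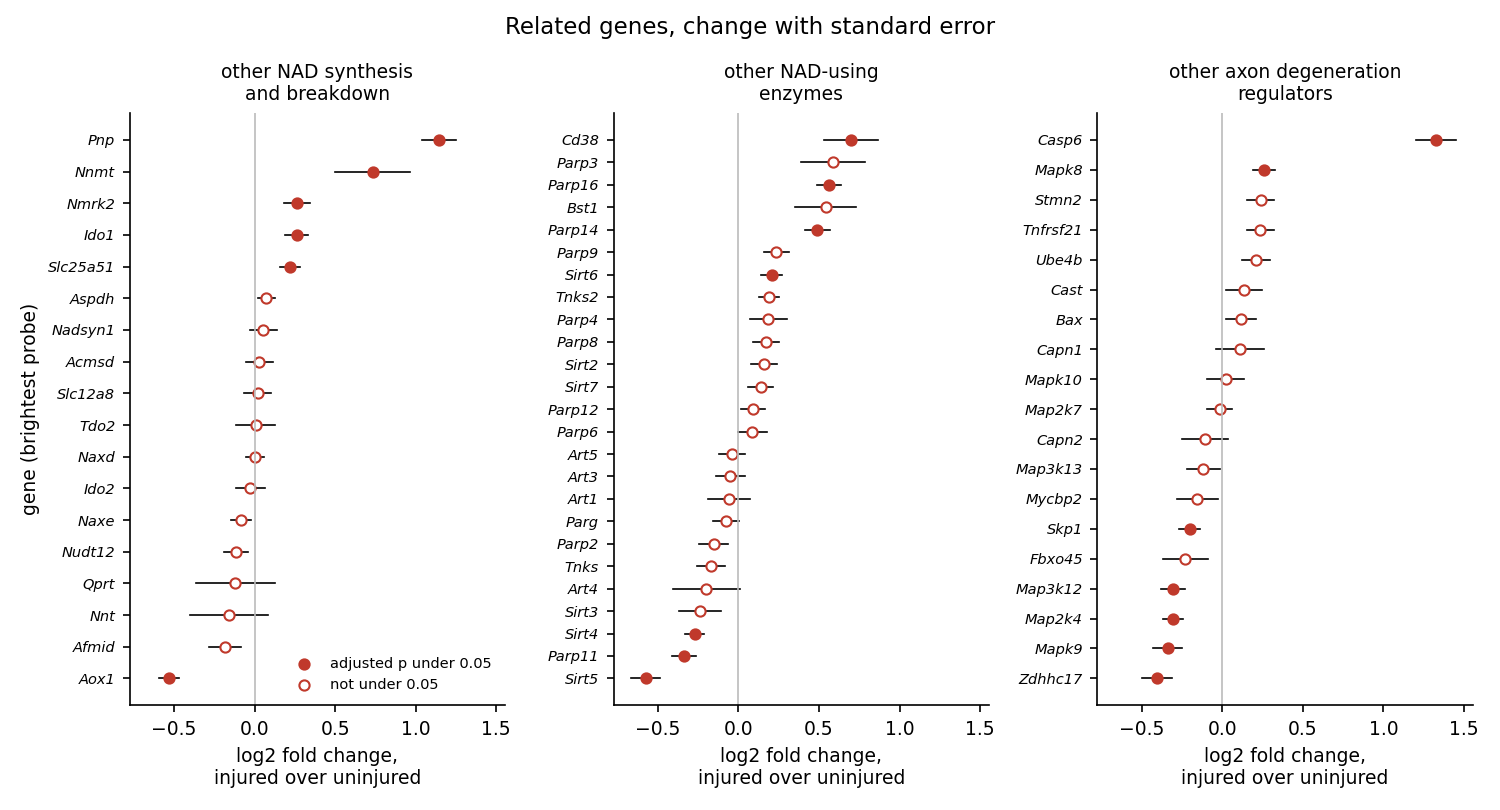
Each row is a gene of 1 of 3 lists and the x axis gives the log2 fold change of injured over uninjured arrays for its brightest probe (circles, filled where limma's adjusted p is under 0.05; lines, 1 standard error to each side). *Pnp* at 1.15 and *Casp6* at 1.33 stand to the right of their lists, and most genes of all 3 lists lie near 0.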

How the data were processed

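RNA of L3/L4 DRG (Cy5) and a universal mouse reference (Cy3) were hybridised to 9 two-colour Agilent arrays, all in 1 dye orientation. The labels and methods give 3 days after transection, and the study's results text gives an earlier time. The spot and background intensities were deposited as scanned by Agilent Feature Extraction 10.5.1.1, with no scaling. Agilent's log10 ratios, made per the file headers with its background model and a linear-lowess correction of the dyes, were used as an alternative. The authors' own log2 ratios, for which the submitters' processing notes name limma, fitted the values used here with slopes of 1.005 to 1.014 per array and array medians of 0.0202 to 0.024, which gave their scale and direction. Feature Extraction parameters beyond these, and the settings of limma, are not given in the sources used here.

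In R 4.3.3 with limma 3.58.1, spots with a non-uniform feature or background (2 to 26 per array) were left out, since on injured array 2 they reached -9047 after background subtraction and, when kept, gave a slope of 0.823 on the authors' values. Background was corrected by normexp (offset 50), followed by loess within each array and the mean of repeated spots. A probe entered the test if its Cy5 signal was well above background on 4 or more arrays (31186 of 41174). Of all spots, 71.0% to 78.9% per array were above background, and the number of arrays limits the precision. All 15 member probes were above background on all 9 arrays in both channels, and none was saturated. The 2 groups were compared by limma's moderated test with Benjamini-Hochberg adjustment, and calls were made at an adjusted p under 0.05. For single probes and for pairs, an exact two-sided permutation test ran over 126 splits. Tested on simulated data over the 31186 probes, the fit recovered 48% of probes changed by 0.4 and 90% of those changed by 1 on the log2 scale. Of all calls there, 8.61% were unchanged probes. The simulation changed 200 probes, against 7338 called in the data, so these shares need not hold for the data.

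Probes were named by accession (22951), by the symbol in the file (6659) or by an older name (3109), and 8455 kept the file's name. All members, every probe, and of each related list the 3 called genes with the largest rise and the 3 with the largest fall are named, except that 1 gene of the axon degeneration list is counted and not reported here. The members and lists were chosen with earlier results of these data known. Alternatives changed the background correction, normalization, filter, slide, weights, probe choice and arrays. Slides are those of the array barcodes, and each slide has its own scan time. Optic nerve, culture and sequencing experiments were not analysed here. The plots used matplotlib 3.10.9 under Python 3.11.15.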

Additional observations from a re-analysis of the deposited data

Results flagged for a closer look

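Of 30 groups of arrays (15 probes, 2 groups each), 2 held an array far from the others of its group, and chance alone marks about 1 group in 20. Uninjured array 4 gave 1.22 on the brighter *Nmnat2* probe, with a gap to the next array that was 0.86 of the group's range, and without it the change was -0.48 (limma's adjusted p = 0.0297). Injured array 3 gave -0.27 for *Nadk*, with a gap of 0.72 of the range, and without it *Nadk* still rose, by 0.39 (limma's adjusted p = 0.00110).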

How the results depend on the processing

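The 5 called probes kept their direction over 24 alternatives (22 for *Nmnat1* probe 2). Leaving out injured arrays 2 and 4 and, for the pairs, reading the dimmer probe of genes with 2 were chosen after the data were seen. The member count was 5, and 3 with median centring, 0 with slide as a fixed block, 6 with array weights, 7 with slide as a random block and 4 to 5 with each array left out. Median centring ended the calls of *Nadk* (0.27, limma's adjusted p = 0.210), *Nmrk1* (-0.48, 0.0868) and *Nmnat2* and added *Nmnat1* probe 1 (-0.43, 0.00917). Array weights (-0.36) and the random block (-0.32) also added *Nmnat1* probe 1, and the random block *Nmnat2* probe 2 (-0.22, limma's adjusted p = 0.0187). The random block estimated a negative correlation within slides (-0.20), so the calls it added are not read as support. The count over all probes was 7338, and 3523 with median centring, 1508 with the fixed block, 10340 with the random block, 8877 with array weights, 4040 without injured arrays 2 and 4 and 5377 to 7481 with each array left out. Median centring moved the median of all probes to -0.051 and turned *Sirt1* probe 1 (-0.0022) and *Parp1* (-0.084 and -0.031). *Parp1* probe 1 also turned with Cy5 alone (-0.0098) and ranged from -0.076 to 0.12, and probe 2 from -0.019 to 0.17, with arrays left out. *Nampt* probe 2 turned with all spots kept (0.048) and without injured array 5, within -0.12 to 0.0032. *Nmnat2* minus *Nmnat1* turned with the dimmer probes (0.26, adjusted exact p = 0.0496) and ranged from -0.22 to 0.029 with arrays left out. *Nmnat2* minus *Sarm1* lost its call with Agilent's ratios (-0.53) and without injured arrays 2 and 4 (-0.50), and ranged from -0.68 to -0.53 with arrays left out. *Nmnat2* minus *Nmnat3* lost it with offset 0 (-0.84), Agilent's ratios (-0.77), Cy5 alone (-0.55), the dimmer probes (-0.43) and without injured arrays 2 and 4 (-0.50), and ranged from -0.79 to -0.51. *Nampt* minus *Nmrk1* (0.19) and *Nampt* minus *Naprt* (-0.84) lost it without injured arrays 2 and 4, and ranged from 0.15 to 0.25 and from -0.89 to -0.64. Fewer arrays also leave fewer splits for the exact test, and the causes of the other losses were not tested. *Nadk*, *Naprt*, *Nmrk1* and *Nmnat1* probe 2 were called with every array left out in turn. No paired analysis was possible because no label numbers the animals or the replicates.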
